A study of Mus musculus with 12 samples.

Results

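The genes described here are 10 textbook targets of the transcription factor p53, namely Cdkn1a, Ccng1, Bbc3, Bax, Phlda3, Mdm2, Trp53inp1, Zmat3, Sesn2 and Gdf15, read as open chromatin in brain macrophages of irradiated mice. Their members are all accessible regions (ATAC-seq peaks) that the deposited annotation assigned to one of the 10 genes as the nearest transcription start site. This gave 43 of 60288 peaks in untreated mice and 39 of 54953 peaks after lipopolysaccharide (LPS), a bacterial endotoxin, and all 10 genes had at least 1 peak in both tables. They stand among 16195 and 16156 genes with a peak. Between host and grafted cells, no summed gene passed the test in either treatment, against 15.1% (untreated) and 6.95% (LPS) of all genes. In untreated mice 3 of 41 tested peaks passed, against 14.9% of all peaks. These 3 were higher in host cells, and 6.32% of all peaks passed on that side. After LPS 0 of 38 passed, against 6.46% of all peaks.

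ATAC-seq uses a transposase that cuts and tags accessible DNA. The mice were bone marrow chimeras. Per the labels they were wild-type C57BL/6J, irradiated with 950 cGy, given donor bone marrow and kept for 3.5 or 9 months, and the labels do not say which interval belongs to which mouse. Graft-derived cells carried CD45.1, host microglia carried CD45.2, and both were sorted from brains of chimeras. Mice 4, 5 and 6 were untreated and mice 1, 2 and 3 received 2.5 mg/kg LPS and were killed 12 h later, so that the 12 libraries form 4 groups of 3. The mouse numbers are the replicate numbers in the titles. An equal number in CD45.1 and CD45.2 was read as the same mouse, which the titles do not state. All groups come from irradiated recipients. CD45.2 cells were themselves irradiated, and CD45.1 cells descend from marrow that was transplanted afterwards. Since there is no group of host cells without irradiation, irradiation and cell origin cannot be told apart in these data.

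p53 is held at a low level by Mdm2, an E3 ubiquitin ligase that marks it for degradation. DNA damage activates the kinases Atm and Atr, p53 is released from Mdm2, and it binds pairs of a short degenerate half-site near its targets. Those targets stop the cell cycle, trigger apoptosis, repair DNA or adjust metabolism, and several, Mdm2 among them, feed back on p53. Microglia are long-lived macrophages that survive doses of radiation that kill the blood-forming marrow.

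Untreated libraries held between 8392877.5 and 9107770 total tags and LPS libraries between 2966364 and 6556594.5, so single peaks after LPS carry more counting error. The CD45.2 library of untreated mouse 4 stood apart, with 18.4% of its tags in merged peaks against 29.7% to 39.0% in the other 5 untreated libraries. The labels of the populations were checked at marker genes. In untreated mice the host microglia markers Sall1 and Sall3 were higher in CD45.2, while P2ry12 (log2 0.05), Tmem119 (-0.16), Siglech (-0.19) and Slc2a5 (-0.25) did not pass, and after LPS P2ry12 (0.23) and Tmem119 (0.51) had more tags in CD45.1 without passing. In untreated mice 4 of 5 markers of grafted brain macrophages (Apoe, Ms4a7, Mrc1 and Runx3) were higher in CD45.1. After LPS Sall1 (log2 -3.16) and Sall3 (-1.14) again passed higher in CD45.2. Of the grafted markers Apoe, Mrc1 and Runx3 then passed higher in CD45.1, and Ms4a7 and Ccr2 did not pass. Lists of other cell types were summed in the same way. Summed normalised tags of the untreated neuron list (4 of 5 genes with a peak, none at Gad1) ran from 80.7 to 88.5 in CD45.1 and from 213 to 240 in CD45.2. That gap lay at Snap25 (mean 9.45 against 88.0), Syt1 (0.311 against 47.3) and Rbfox3 (24.1 against 48.2), and not at Slc17a7 (49.9 against 46.3). The endothelial list (4 of 5, none at Tek) ran from 326 to 395 and from 474 to 534. Its widest gap was at Cdh5 (37.8 against 212), the only gene of the list that passed. Cldn5 (28.4 against 47.6) and Pecam1 (54.5 against 73.4) had more tags in CD45.2, and Flt1 had more in CD45.1 (230 against 177). The T cell list (3 of 5, none at Cd3e or Cd3g) ran from 316 to 334.5 in CD45.1 and from 130 to 144 in CD45.2. Most of that gap was Themis (mean 185 against 5.37), Cd3d was also higher in CD45.1 (106 against 64.0), and Lck was higher in CD45.2 (34.6 against 65.2). Neutrophil markers (3 of 5) gave 55.0 to 86.0 and 74.7 to 92.6, B cell markers (2 of 5) 71.3 to 86.3 and 94.0 to 109.8, astrocyte markers (5 of 5) 379 to 451 and 413 to 514, and oligodendrocyte markers (4 of 5) 944 to 1001 and 957 to 1001. Within these lists Gja1 passed higher in CD45.1 (189 against 110). S100a9 (17.7 against 39.3), Ebf1 (26.6 against 53.3), Aldh1l1 (38.8 against 71.9), Slc1a2 (147 against 233) and Mog (118 against 211) passed higher in CD45.2. After LPS only Gja1 and Mog of these lists passed, on the same sides. After LPS the neuron list ran from 30.0 to 34.9 in CD45.1 and from 81.1 to 116 in CD45.2. The T cell list then ran from 72.2 to 90.2 and from 55.8 to 60.4 (Themis alone passed). The endothelial list then ran from 287 to 335 and from 350.3 to 368.5 (Cdh5 alone passed). The part of these lists in the differences at p53 targets was not tested.

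The sequences that carry the differences are shown first. All are on the plus strand of mm9. The 3 peaks that passed between host and grafted cells in untreated mice are the Ccng1 peak at −100680 bp, in intergenic DNA (chr11:40669411-40669525), the Phlda3 promoter peak, of which the 90 bases before the annotated transcript are given (chr1:137662606-137662695), and a peak in intron 1 of Bbc3 at chr7:16895455-16895647. Capitals mark GGGCGG, the letters bound by factors of the SP family, on either strand.
Ccng1 upstream peak: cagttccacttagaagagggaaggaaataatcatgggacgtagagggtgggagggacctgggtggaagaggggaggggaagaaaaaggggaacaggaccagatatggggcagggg
Phlda3 promoter: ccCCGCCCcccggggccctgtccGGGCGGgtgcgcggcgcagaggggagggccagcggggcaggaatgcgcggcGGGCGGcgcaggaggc
Bbc3 intron 1: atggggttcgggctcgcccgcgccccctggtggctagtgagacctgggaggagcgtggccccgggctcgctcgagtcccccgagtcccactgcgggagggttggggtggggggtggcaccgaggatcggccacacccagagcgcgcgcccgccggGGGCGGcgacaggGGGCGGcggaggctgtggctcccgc

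The next set holds the 4 peaks in the region upstream of Mdm2, where tags rose after LPS, with their bounds in the LPS table: chr10:117154752-117154952 at −7038 bp, chr10:117156090-117156292 at −8377 bp, chr10:117156969-117157197 at −9269 bp and chr10:117158615-117158763 at −10875 bp. The next protein-coding start site in the GENCODE vM1 annotation was that of Slc35e3, between 24.7 and 28.6 kb from these peaks. Capitals mark TGANTCA (AP-1, the Fos and Jun dimer), the p53 half-site, given by name because its consensus is degenerate, and GAGGAAGT (PU.1, the macrophage lineage factor).
Mdm2 -7 kb, 1 half-site and 1 AP-1 match: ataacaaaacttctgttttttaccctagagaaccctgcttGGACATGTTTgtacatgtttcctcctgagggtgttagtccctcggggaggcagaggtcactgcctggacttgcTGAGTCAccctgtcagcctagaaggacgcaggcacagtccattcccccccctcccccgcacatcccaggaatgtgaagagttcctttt
Mdm2 -8.4 kb, no match: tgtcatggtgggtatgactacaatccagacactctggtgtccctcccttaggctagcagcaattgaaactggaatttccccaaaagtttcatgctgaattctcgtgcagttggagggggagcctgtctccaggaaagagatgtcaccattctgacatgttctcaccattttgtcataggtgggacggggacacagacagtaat
Mdm2 -9.3 kb, 2 PU.1 matches: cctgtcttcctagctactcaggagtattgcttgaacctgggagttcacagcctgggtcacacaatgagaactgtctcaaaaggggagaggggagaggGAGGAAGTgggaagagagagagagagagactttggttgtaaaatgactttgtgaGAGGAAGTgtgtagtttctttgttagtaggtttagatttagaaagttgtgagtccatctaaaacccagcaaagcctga
Mdm2 -10.9 kb, 2 AP-1 matches: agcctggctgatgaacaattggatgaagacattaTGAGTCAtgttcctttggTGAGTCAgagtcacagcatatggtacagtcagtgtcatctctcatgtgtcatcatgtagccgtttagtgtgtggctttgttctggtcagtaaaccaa

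Motifs were searched on both strands in windows of 200 bp at the peak centres. There, 7 of 43 untreated member peaks (16.3%) held a p53 half-site, against 6.28% of all peaks of that table, and 7 of 39 (17.9%) against 6.28% after LPS. In untreated mice they were the promoter of Trp53inp1, the peaks upstream of Bbc3, Mdm2, Sesn2 and Zmat3, and a peak at the end of the neighbouring gene of each of Bbc3 and Phlda3. A full site, a pair of half-sites with a spacer of up to 13 bases, was in 0 member peaks and in 0.0498% and 0.0455% of all peaks. A half-site counted only where every base matched the consensus, so pairs with a mismatch were not counted. In the Mdm2 -7 kb peak, the letters directly after the half-site depart from the consensus at a single base. GGGCGG was in 41.9% and 41.0% of member peaks against 22.9% and 23.1% of all. TGANTCA was in 7 member peaks of each table, 16.3% and 17.9% against 8.11% and 13.4%. CACGTG (E-box) was in 6.98% and 10.3% against 5.65% and 5.82%, GAGGAAGT in 4.65% and 5.13% against 9.45% and 8.72%, and TGACGTCA (CRE) in 0 member peaks against 1.18% and 1.26%. Member peaks were about as wide as others, with medians of 139 and 168 bp against 132 and 167 bp. Their median GC content was higher, 56.5% in untreated mice and 57.5% after LPS, against 52% for all peaks in both. Promoters held 10 member peaks in untreated mice (23.3%, against 22.2% of all) and 10 after LPS (25.6%, against 22.7%). Within 1 kb of a start site lay 16 of 43 and 15 of 39 members, against 17033 of 60288 and 15560 of 54953 peaks. The part of GC content and position in the motif shares was not tested. A match is a run of letters and not evidence of binding. The Bbc3 peak at −913 bp, chr7:16893915-16894123, shows a half-site in context, in capitals.
Bbc3 upstream peak: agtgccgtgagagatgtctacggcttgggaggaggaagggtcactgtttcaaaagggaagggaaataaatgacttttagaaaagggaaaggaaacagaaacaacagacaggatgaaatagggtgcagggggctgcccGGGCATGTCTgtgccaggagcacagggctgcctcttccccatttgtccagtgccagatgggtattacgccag

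Nearest start site does not mean regulation. Of the untreated member peaks 4 lay in or at the end of another gene (Cpm for Mdm2, Sae1 for Bbc3 and Csrp1 for Phlda3), and for 3 of 43 the nearest GENCODE vM1 start was another gene's. The Zmat3 peak at −31348 bp was 658 bp from a start of Pik3ca, and a Phlda3 peak at 15360 bp was 1620 bp from one of Tnni1. After LPS both numbers were 5 of 39.

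Values below are normalised tags, that is, deposited tags divided by a DESeq2 size factor fitted within 1 treatment, so levels of untreated and LPS libraries are not on a common scale unless stated. A log2 difference is CD45.1 over CD45.2, and a negative value means more tags in host cells. A peak or gene passed where the DESeq2 p, adjusted by Benjamini-Hochberg over all features tested, was under 0.05. In bulk ATAC-seq, a larger share of cells with an open region and a more open region in each cell cannot be told apart.

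The first comparison asks whether the p53 target loci differ between irradiated host microglia and grafted cells at rest. Summed over all peaks of a gene, 0 of 10 members passed, where 15.1% of all genes did. The log2 differences of the 10 sums ran from -0.26 (Bbc3) to 0.16 (Sesn2), with a median of -0.05 against 0.03 for all gene sums. Host and grafted libraries were fully apart in 1 of 10 members, Bbc3, against 33.1% of all genes. Bbc3 was also the one member with an unadjusted p under 0.05, as 23.3% of all genes had, and edgeR passed it (-0.28, adjusted p = 0.0463). A count of 0 does not show that populations were alike. The 95% intervals of the 10 sums reached from 0.709-fold (Bax) to 1.33-fold (Sesn2), so differences inside them are not excluded. For single peaks, changes of 2-fold were often missed in data simulated at these depths, and 4-fold ones in peaks with few tags.

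Cdkn1a encodes p21, the inhibitor of cyclin-dependent kinases that enforces arrest after damage. Its 2 peaks summed to 156, 111 and 182 normalised tags in CD45.1 of mice 4, 5 and 6 and to 148, 167 and 134 in CD45.2. The groups overlap, with the host libraries inside the range of the grafted ones. The log2 difference was 0.00 (SE 0.190, adjusted p = 0.994), and its 95% interval covered 0.770 to 1.29-fold. At the promoter of Cdkn1a, 64 bp before the start site, CD45.1 held 53.6, 21.9 and 52.8 tags and CD45.2 67.2, 66.6 and 47.5 (-0.49, SE 0.314, adjusted p = 0.375). The intron 1 peak at 1767 bp gave 0.24 with an adjusted p of 0.580. Ccng1, which encodes cyclin G1, a p53-induced cyclin that acts through a phosphatase on Mdm2, summed to 246, 223 and 261 tags in CD45.1 and to 285, 228 and 265 in CD45.2 (-0.08, SE 0.141, adjusted p = 0.844, interval 0.781 to 1.15-fold). Its promoter held 222, 207 and 233 against 243, 185 and 215 tags (0.06, SE 0.147, adjusted p = 0.894).

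The largest difference of the set was far from that promoter. The Ccng1 peak at −100680 bp, whose sequence is given above, held 3.26, 2.74 and 4.36 normalised tags in CD45.1 and 15.6, 25.5 and 25.6 in CD45.2. Every host library was above every grafted one. In deposited tags these were 3.5, 3 and 4 against 9.5, 33 and 31.5, so the grafted level rests on few tags. Only host libraries had over 10 tags there, so the peak met the filter only through the population in which it is high. Host cells were 6.45-fold higher (3.45 ± 0.825 against 22.2 ± 5.77, SD, n = 3; log2 -2.69, SE 0.619, DESeq2 adjusted p = 0.000278). It is the only member peak over 4-fold at an adjusted p under 0.01, which 6.43% of all peaks reached. The peak was called in 2 of the 6 libraries, its nearest other protein-coding start was 122 kb away (Nudcd2), and the LPS table held no peak there. With the mouse as a block the log2 difference was -2.65 (SE 0.729, adjusted p = 0.00512).

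Bbc3 encodes Puma, a BH3-only protein that triggers mitochondrial apoptosis, and Bax encodes the pore protein it acts on. The 7 peaks of Bbc3 summed to 568, 530 and 619 tags in CD45.1 and to 793, 646 and 625 in CD45.2. The host libraries were all above the grafted ones, but the gap was narrow, between 619 and 625, and the highest was the CD45.2 library of mouse 4 that stood apart. The difference was -0.26 (SE 0.114, adjusted p = 0.125, interval 0.716 to 0.977-fold). Summed over the peaks within 1 kb of the start alone, Bbc3 passed (log2 -0.52, SE 0.141, adjusted p = 0.00804).

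Peak by peak, 5 of the 7 Bbc3 log2 differences were negative and 2 were positive. The populations did not overlap at 4 of the 7, against 35.5% of all tested peaks. Peaks of the same gene are read from the same libraries and are not independent. The intron 1 peak at 619 bp held 63.9, 65.7 and 83.9 tags in CD45.1 and 146, 98.7 and 93.7 in CD45.2. It passed, with host cells 1.57-fold higher (71.2 ± 11 against 113 ± 28.8, log2 -0.65, SE 0.225, adjusted p = 0.0304). With the mouse as a block it did not (-0.65, adjusted p = 0.137), and leaving out any library but CD45.1 of mouse 6 ended the call, with adjusted p from 0.0513 to 0.208. The promoter peak at −74 bp held 116, 94.9 and 120 against 192, 147 and 134 tags (-0.50, SE 0.187, adjusted p = 0.0518), and the half-site peak at −913 bp 94.7, 104 and 88.2 against 143, 128 and 117 (-0.42, SE 0.187, adjusted p = 0.129). At these 3 neighbouring peaks no grafted library reached a host one. The same held for the peak further upstream at −9742 bp, which did not pass. On the scale fitted over all 12 libraries it held 64.1, 63.4 and 57.0 against 89.8, 69.6 and 70.1 tags. Peaks in introns 2 and 3, at 3621 and 4515 bp, had log2 differences of 0.33 and 0.29 with adjusted p of 0.494 and 0.519.

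Bax showed no such difference at rest. Its 3 peaks summed to 77.9, 87.2 and 107 tags in CD45.1 and to 94.2, 99.5 and 95.8 in CD45.2 (-0.10, SE 0.205, adjusted p = 0.881, interval 0.709 to 1.24-fold). Its promoter peak held 49.4, 60.7 and 65.3 against 60.6, 57.3 and 56.8 tags (0.00, adjusted p = 0.995). Phlda3, a p53-induced repressor of the kinase Akt, summed to 147, 113 and 140 against 149, 153 and 118 tags (-0.06, SE 0.183, adjusted p = 0.913, interval 0.746 to 1.23-fold).

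Within Phlda3 the promoter stood apart from the sum. Its peak at chr1:137662606-137662766, centred 24 bp past the start site, held 20.1, 10.5 and 13.6 tags in CD45.1 and 32.8, 47.6 and 22.7 in CD45.2. All host libraries were higher, the closest pair being 20.1 and 22.7. Host cells were 2.33-fold higher (14.7 ± 4.87 against 34.4 ± 12.5, log2 -1.22, SE 0.422, adjusted p = 0.0296). With the mouse as a block the adjusted p was 0.124, and it was 0.452 when the CD45.2 library of mouse 5 was left out, and 0.179 and 0.110 when the CD45.1 libraries of mouse 5 or 6 were. Phlda3 lies 2.35 Mb from Ptprc, the gene of CD45 by which the congenic donor and host differ. Donor DNA around Ptprc and cell population go together in this design and cannot be told apart.

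**Figure D1:**
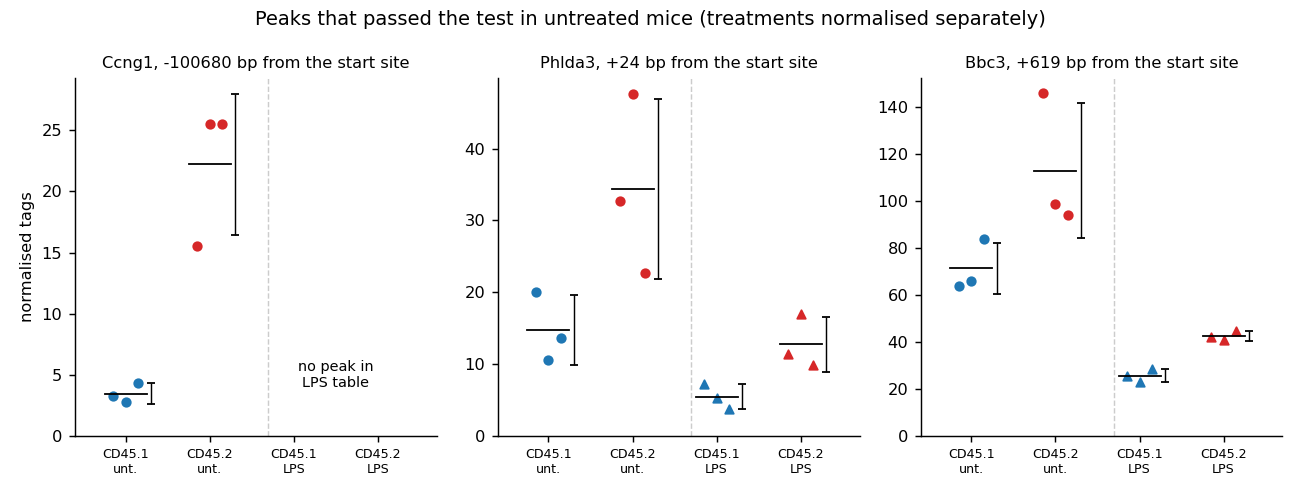
Normalised tags (y axis, from 0) of the 3 member peaks that passed in untreated mice, for each library by population and treatment (circles, untreated; triangles, LPS; blue, CD45.1; red, CD45.2). Black lines are means and bars SD (n = 3); levels left and right of the dashed line were normalised separately. Host libraries lie above the grafted ones in every panel, and the Ccng1 peak has no counterpart after LPS.

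Mdm2 had 8 peaks, whose sums were 310, 294 and 365 tags in CD45.1 and 374, 334 and 307 in CD45.2 (-0.06, SE 0.132, adjusted p = 0.881, interval 0.802 to 1.15-fold). Its promoter held 172, 144 and 167 against 215, 153 and 150 tags (-0.07, adjusted p = 0.888). The peak at −7027 bp, which holds the half-site shown above, had 16.8, 19.2 and 20.1 tags in CD45.1 and 31.1, 32.5 and 25.6 in CD45.2. These libraries do not overlap, but the test gave -0.69 with an adjusted p of 0.270. The peak at −10875 bp had 7.46, 2.74 and 33.8 against 4.1, 2.71 and 6.90 tags (1.72, SE 0.798, adjusted p = 0.149), and only CD45.1 of mouse 6 was high there.

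Trp53inp1 encodes a nuclear stress protein that promotes p53 activity and autophagy. Its sums were 249, 230 and 214 tags in CD45.1 and 292, 212 and 216 in CD45.2 (-0.04, SE 0.152, adjusted p = 0.948, interval 0.793 to 1.20-fold), and its promoter, with a half-site, held 229, 209 and 191 against 270, 183 and 188 (0.00, adjusted p = 0.996). Zmat3, a zinc finger protein that binds RNA, summed to 285, 282 and 280 against 307, 262 and 255 (0.05, SE 0.131, adjusted p = 0.905, interval 0.866 to 1.24-fold). Most of that sum, a mean of 250.2 tags in CD45.1, is the peak next to Pik3ca. At the Zmat3 promoter CD45.1 held 32.6, 31.5 and 31.6 tags and CD45.2 41, 41.4 and 41.8. The groups do not overlap and the spread within each is below 1 tag, yet counts of this size gave -0.39 (SE 0.306) with an adjusted p of 0.512.

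Among the stress and metabolism genes, Sesn2 encodes sestrin 2, an inhibitor of the growth kinase complex mTORC1, and summed to 327, 366 and 425 tags in CD45.1 and to 311, 352 and 332 in CD45.2 (0.16, SE 0.129, adjusted p = 0.536, interval 0.938 to 1.33-fold). Its promoter, with 120, 129 and 157 against 110, 120 and 109 tags, had no shared range but was also not called (0.26, adjusted p = 0.449). Gdf15, a stress cytokine of the TGF-β family, had no promoter peak. Its 8 peaks summed to 206, 189 and 192 against 190, 186 and 182 tags (0.08, SE 0.147, adjusted p = 0.862, interval 0.864 to 1.29-fold).

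Per 100 bp, the densest promoter peaks in untreated CD45.2 cells were those of Ccng1 (169 tags), Trp53inp1 (124), Mdm2 (105) and Sesn2 (96.6), followed by Bbc3 (77.2), Cdkn1a (51.6), Bax (31.0), Phlda3 (21.3) and Zmat3 (18.9). In CD45.1 cells the levels were 174, 122, 98.2, 116, 54.0, 36.6, 31.1, 9.14 and 14.6 tags per 100 bp for the same genes in that order.

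**Figure D2:**
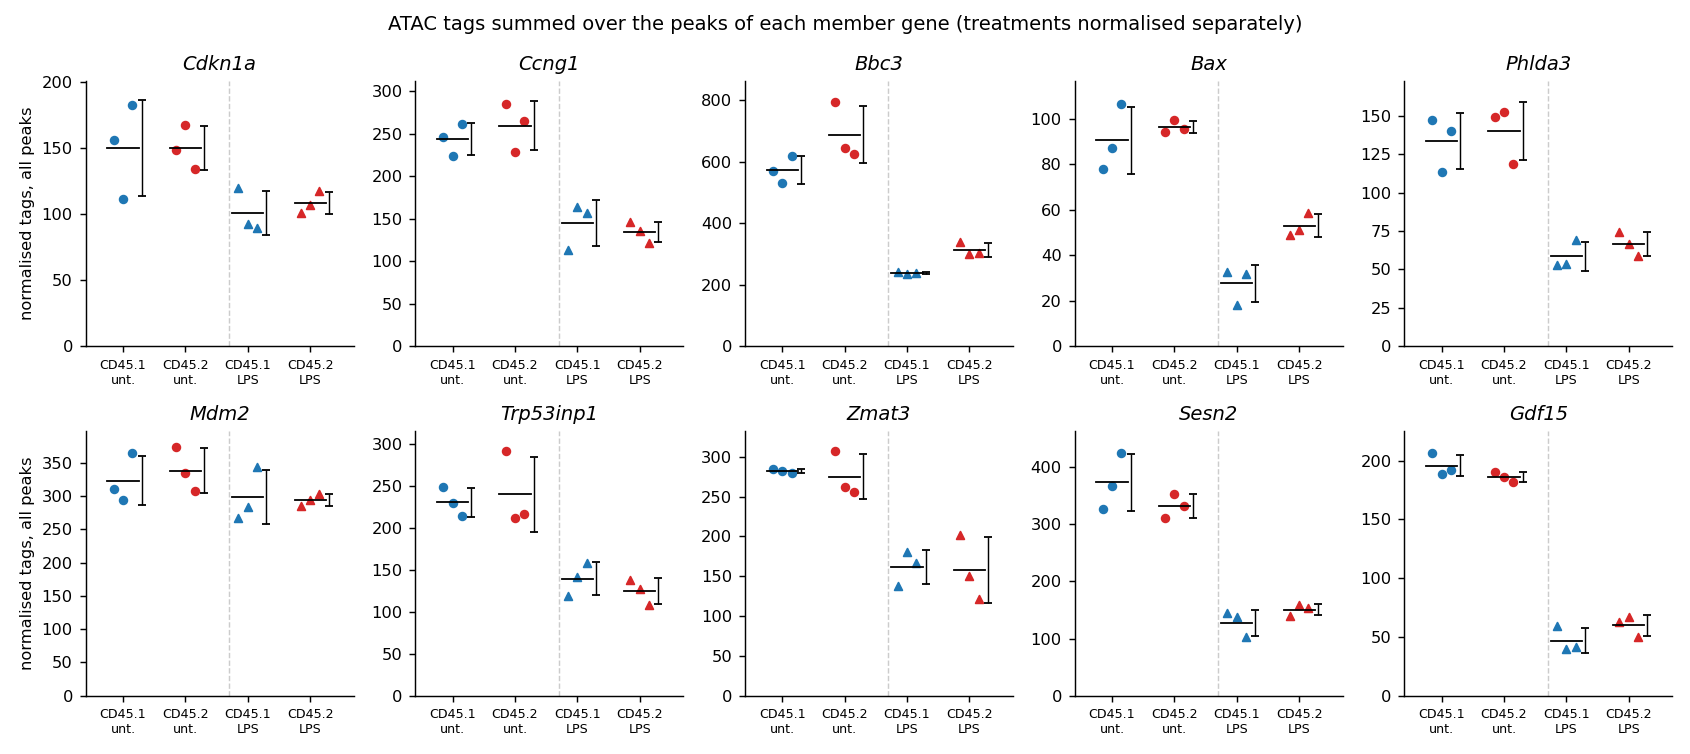
Normalised tags summed over all peaks of each member gene (y axis, from 0), for each library by population and treatment (circles, untreated; triangles, LPS; blue, CD45.1; red, CD45.2). Black lines are means and bars SD (n = 3); levels left and right of the dashed line were normalised separately and are not comparable. Bbc3 does not overlap between populations in either treatment, and Bax does not after LPS.

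Counted over single peaks in untreated mice, 3 of 41 tested member peaks passed (7.32%), against 14.9% of all tested peaks. All 3 were higher in CD45.2, which 6.32% of all peaks were, and 0 were higher in CD45.1, which 8.54% were. Differences over 2-fold, whatever their p, were found in 4 of 41 (9.76%) against 19.7% of all. Grafted and host libraries were apart in 9 of 41 (22%) against 35.5%. The log2 differences ran from -2.69 to 1.72, with a median of -0.01 for members and 0.00 for all peaks, and 22 of 41 were negative. The other 2 member peaks, at Gdf15 and Phlda3, had at most 6.5 tags in any library and were not tested. At an unadjusted p under 0.05 there were 7 (17.1%) against 23.7% of all peaks. Besides the 3 that passed, these were 4: the 2 other Bbc3 peaks near the start, and at Mdm2 the peak at −10875 bp and one in intron 8 of Cpm.

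The second comparison sets the populations against each other after LPS. Of 10 member sums 0 passed, where 6.95% of all genes did, and 2 of 10 had an unadjusted p under 0.05, Bax and Bbc3, against 16.6% of all genes. Both, 2 of 10, had host libraries wholly above grafted ones, and 25.7% of all genes did not overlap. Bax summed to 32.7, 18.3 and 31.6 tags in CD45.1 of mice 1, 2 and 3 and to 49, 51 and 58.8 in CD45.2. Every host library was higher. The difference was -0.92 (SE 0.316), an interval of 0.344 to 0.810-fold, with an adjusted p of 0.0502, and edgeR's adjusted p was 0.0191. Its larger peak, in exon 1, held 27.5, 11.7 and 20.8 against 38.5, 34 and 45 tags (-0.94, SE 0.374, adjusted p = 0.127).

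After LPS the Bbc3 sums were 241, 235 and 237 tags in CD45.1 and 338, 300 and 301 in CD45.2 (-0.39, SE 0.155, adjusted p = 0.121, interval 0.618 to 0.941-fold). All 7 of its peaks had negative log2 differences, from -0.70 to -0.03, and none passed. The intron 1 peak held 25.5, 22.8 and 28.3 against 42, 40.6 and 44.5 tags (-0.70, SE 0.328, adjusted p = 0.246), and the promoter 45.7, 49.6 and 39.2 against 70.9, 64.5 and 59.7 (-0.52, SE 0.268, adjusted p = 0.330). These are other mice than the untreated ones.

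The Phlda3 promoter held 7.28, 5.22 and 3.77 tags in CD45.1 and 11.4, 17 and 9.80 in CD45.2 after LPS. All host libraries were higher, at counts too low to call (-1.19, SE 0.646, adjusted p = 0.374). The Phlda3 sum was 52.6, 53.5 and 69.4 against 74.4, 66.3 and 58.8 (-0.15, SE 0.257, adjusted p = 0.841).

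The remaining members overlapped between populations after LPS. Cdkn1a summed to 120, 92.6 and 89.6 tags in CD45.1 and to 101, 107 and 118 in CD45.2 (-0.11, SE 0.214, adjusted p = 0.867), and its promoter held 28.7, 17 and 25 against 28.9, 24 and 24.6. Ccng1 summed to 113, 164 and 156 against 145, 136 and 122 (0.11, SE 0.204, adjusted p = 0.861), almost all at the promoter with 101, 154 and 138 against 136, 129 and 114. Mdm2 summed to 267, 284 and 344 against 285, 294 and 303 (0.02, SE 0.161, adjusted p = 0.976), and its promoter held 84.5, 91.3 and 76.4 against 91.1, 85.0 and 65.9.

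Trp53inp1 summed to 119, 142 and 158 tags against 138, 127 and 108 (0.18, SE 0.203, adjusted p = 0.754), with 109, 134 and 150 against 133, 117 and 102 at its promoter. Zmat3 summed to 138, 180 and 167 against 202, 150 and 121 (0.06, SE 0.212, adjusted p = 0.940), of which the promoter at −53 bp gave 7.68, 13.7 and 15.1 against 18.4, 11.3 and 11. Both genes held their grafted and host libraries in one range. Sesn2 summed to 144, 137 and 102 against 140, 159 and 153 (-0.25, SE 0.199, adjusted p = 0.609), and its promoter held 55, 54.1 and 40.1 against 58.7, 57.6 and 69.2, which do not overlap and were not called (-0.33, adjusted p = 0.659). Gdf15 summed to 59.4, 39.8 and 41.5 against 63.1, 66.7 and 49.9 (-0.32, SE 0.282, adjusted p = 0.646). The intervals of these 7 sums reached from 0.545 to 1.49-fold, so differences inside them are not excluded.

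Over single peaks after LPS, 0 of 38 tested member peaks passed, against 6.46% of all tested peaks (4.08% higher in CD45.1 and 2.38% higher in CD45.2), and 0 were over 4-fold at an adjusted p under 0.01, against 2.97%. In DESeq2, 2 (5.26%) had an unadjusted p under 0.05, at Bax and Bbc3, against 15.5% of all peaks, and edgeR passed 1. Over 2-fold were 2 of 38 (5.26%) against 18.1%, and populations did not overlap in 11 of 38 (28.9%) against 27.1%. Negative differences numbered 25 of 38, with a median of -0.18 against -0.01 for all peaks. The 1 peak that was not tested, at Phlda3, had no more than 10 tags in any library.

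**Figure D3:**
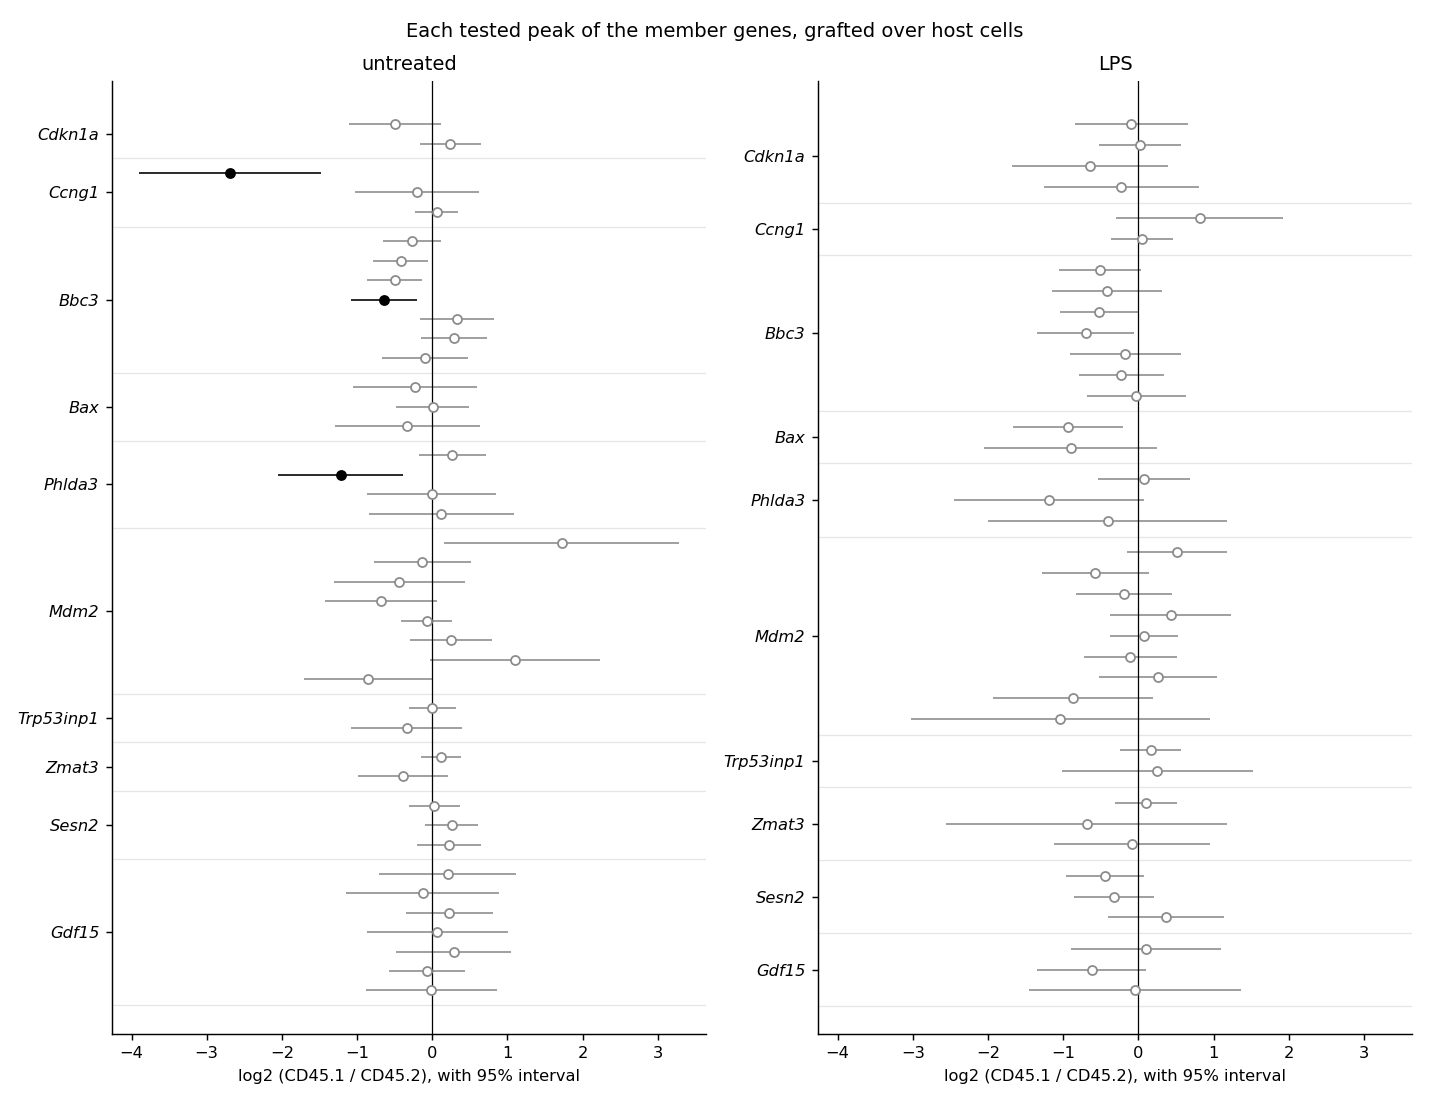
Log2 difference of CD45.1 over CD45.2 (x axis) with its 95% interval for each tested member peak, ordered within a gene from the most upstream (top) to the most downstream, in untreated mice (left, 41 peaks) and after LPS (right, 38 peaks). Filled points passed at an adjusted p under 0.05; the 3 filled points, at Ccng1, Bbc3 and Phlda3, are all left of 0 and in the untreated panel.

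Whether LPS changed the difference between populations was tested on peaks present in both tables. Matching by a reciprocal overlap of at least 50% gave 33 member pairs over all 10 genes among 39235 tested. For the interaction of population and treatment 0 of 33 passed in DESeq2 and in edgeR, against 0.245% of all pairs. At an unadjusted p under 0.05 there were 2 (6.06%), against 5.33% of all pairs, the Mdm2 peak at −7027 bp (1.16, SE 0.498) and the Bax start-site peak (-0.90, SE 0.390), with DESeq2 adjusted p of 0.682 and 0.690. For 7 of the 33 pairs DESeq2 left the adjusted p undefined because of low counts.

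The third comparison sets LPS against untreated mice within a population, on a scale fitted over all 12 libraries. Treatment and table go together: peaks were called and counted separately, and LPS peaks were wider (member pairs, medians of 150 and 170 bp), so a difference in peak bounds adds to these values. In CD45.1, 3 of 33 pairs (9.09%) passed at over 2-fold, against 11.7% of all pairs, and in CD45.2 also 3 (9.09%), against 11.4%. All of them belonged to Mdm2 and lay upstream of it, and all were higher after LPS. The 2 lists share the peaks at −8387 and −10875 bp.

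These upstream peaks were singled out after their values were seen. At −8387 bp, where no match to the marked motifs was found, CD45.1 held 6.54, 13.2 and 14 tags in untreated mice 4, 5 and 6 and 44, 38.9 and 58.1 in LPS mice 1, 2 and 3 (log2 2.08, SE 0.339, adjusted p = 6.34e-08). CD45.2 held 19.6, 16.6 and 11 against 58, 50.5 and 53.8 (1.81, SE 0.320, adjusted p = 7.50e-07). The treatments do not overlap in either population. The peak was 120 bp wide in untreated and 203 bp in LPS mice. With tags divided by width, an alternative added after the data were seen, the values were 1.60 and 1.32, with adjusted p of 0.000102 and 0.000814.

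At −10875 bp from Mdm2, the peak with 2 AP-1 matches, CD45.1 rose from 4.98, 1.84 and 22.2 tags to 51.6, 73.9 and 132 (3.16, SE 0.754, adjusted p = 0.000526). CD45.2 rose from 2.72, 1.84 and 4.67 tags to 53, 50.5 and 71.8 (4.31, SE 0.830, adjusted p = 7.39e-06). Untreated CD45.1 of mouse 6 was the one untreated library with more than 5 tags there, and it was still below all LPS libraries. Without it the CD45.1 value was 4.66 (SE 0.541). The peak was called in 1 of 6 untreated and in 6 of 6 LPS libraries, and per width the values were 2.93 and 4.08 (adjusted p = 0.00180 and 3.20e-05).

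The 2 remaining upstream peaks of Mdm2 each passed in a single population. At −7027 bp, with the p53 half-site and an AP-1 match, CD45.1 went from 11.2, 12.9 and 13.3 to 28.1, 36 and 65.8 tags (1.80, SE 0.356, adjusted p = 1.56e-05; per width 1.30). CD45.2 went from 20.7, 22.1 and 17.3 to 40.4, 24 and 32.4 (0.64, SE 0.349, adjusted p = 0.210; per width 0.13). At −9282 bp, with 2 PU.1 matches, CD45.2 went from 18, 27.1 and 24.5 to 31.5, 65.7 and 60.4 tags (1.21, SE 0.296, adjusted p = 0.000736; per width 0.99, just under 2-fold) and CD45.1 from 19.9, 21.7 and 21.9 to 31.6, 36.9 and 42 (0.79, SE 0.314, adjusted p = 0.0553). The populations are not shown to differ at either peak, since neither interaction passed (adjusted p = 0.682 and 0.973).

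At the Mdm2 promoter there were 115, 96.4 and 110 tags in untreated and 122, 136 and 113 in LPS libraries of CD45.1 (0.20, SE 0.188, adjusted p = 0.487) and 143, 104 and 101 against 131, 123 and 97.1 in CD45.2 (0.01, SE 0.189, adjusted p = 0.982). The intron 1 peak of Mdm2 at 621 bp, also with an AP-1 match, was between: 32.4, 29.1 and 37.3 against 54.5, 50.5 and 50.4 tags in CD45.1 (0.65, adjusted p = 0.0541) and 29.9, 25.8 and 28.6 against 44.1, 59.4 and 58.2 in CD45.2 (0.98, adjusted p = 0.00200, under 2-fold).

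**Figure D4:**
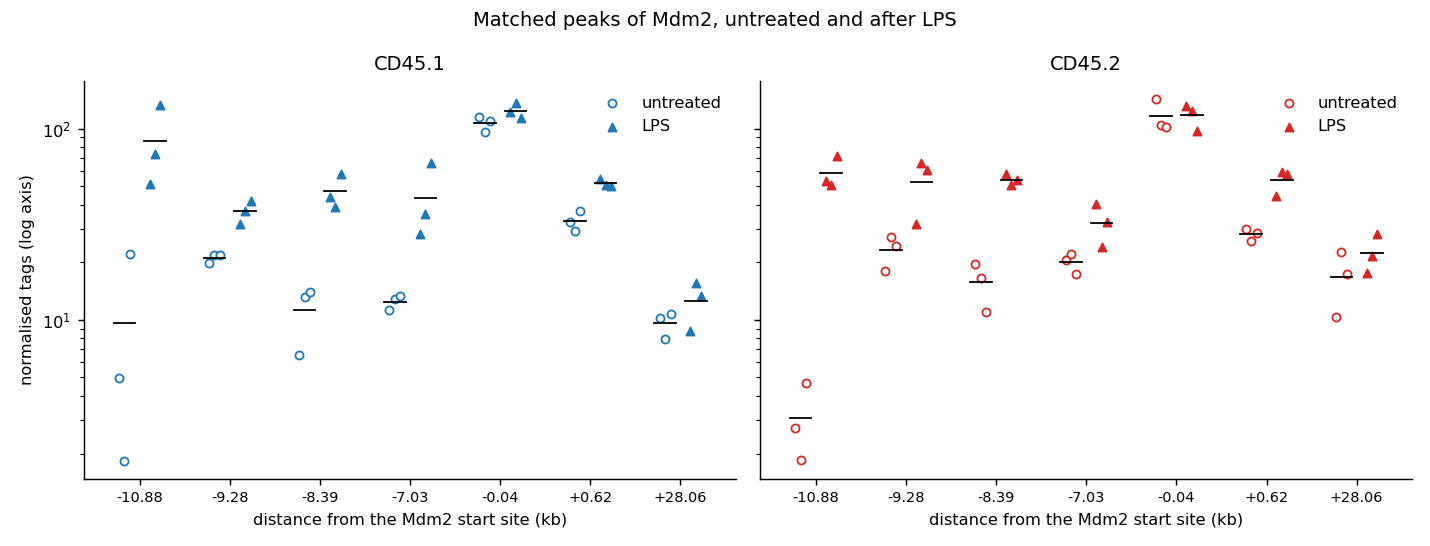
Normalised tags (log axis, one scale for all 12 libraries) of the 7 matched Mdm2 peaks by distance from the start site in kb, in CD45.1 (left, blue) and CD45.2 (right, red). Open circles are untreated and filled triangles LPS libraries, and black lines are means (n = 3). In the 4 upstream peaks the LPS libraries lie above the untreated ones, while at the promoter they share a range.

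In tags per peak, the other members moved by less than 2-fold with LPS where they had an adjusted p under 0.05. The largest such difference was the half-site peak of Bbc3 at −913 bp, with 63.2, 69.5 and 58 against 31.1, 29.2 and 41.3 tags in CD45.1 (-0.91, SE 0.254, adjusted p = 0.00418) and 94.7, 87.5 and 79.1 against 35.3, 49.9 and 46.4 in CD45.2 (-0.93, SE 0.233, adjusted p = 0.00106). This peak was 209 bp wide in untreated and 131 bp in LPS mice, and per width the differences were 0.04 and 0.01. The Bbc3 peak at 4515 bp was higher after LPS in CD45.2 (0.62, adjusted p = 0.0404; per width 0.66). No pair of Cdkn1a, Ccng1, Bax, Phlda3, Trp53inp1, Zmat3, Sesn2 or Gdf15 had an adjusted p under 0.05 in tags per peak. Division by width brought several of them under it. In CD45.1 these were the Ccng1 peak at −8323 bp (1.23, over 2-fold, adjusted p = 0.0206), the promoters of Trp53inp1 (0.62, adjusted p = 0.00615) and Sesn2 (-0.66, adjusted p = 0.0121), the Sesn2 peak at −5193 bp (-0.57, adjusted p = 0.0297) and the Zmat3 peak at −31348 bp (0.53, adjusted p = 0.0121). In CD45.2 they were the same Zmat3 peak (0.49, adjusted p = 0.0286) and the intron 1 peak of Cdkn1a (0.65, adjusted p = 0.0273).

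Around the 10 members, 49 further genes of the p53 pathway were read as sums over their peaks, in 6 lists. Of 45 tested in untreated mice, 4 were higher in CD45.1 and 4 in CD45.2 (17.8% against 15.1% of all genes), and of 47 tested after LPS, 1 and 2 (6.38% against 6.95%), shares near those of all genes. With the mouse as a block, an alternative added for these genes after the data were seen, 4 of the 8 untreated calls (Cdkn2a, Dram1, Eda2r and Ercc5) and 1 of the 3 LPS calls (Eda2r) held. The medians of the pathway genes were 0.03 and 0.00 against 0.03 and -0.03 for all genes. Among p53 and its kinases 1 of 7 (Hipk2) was higher in untreated CD45.1, among inhibitors 1 of 5 (Rchy1), and among stress and metabolism genes 2 of 8 (Dram1 and Tnfaip8). Higher in CD45.2 were 2 of 9 arrest genes (Cdkn2a and Cdkn2b), 1 of 10 apoptosis genes (Eda2r) and 1 of 6 repair genes (Ercc5). After LPS, Dram1, Cdkn2a and Eda2r passed on the same sides, and 0 of 9 kinases, 0 of 5 inhibitors and 0 of 6 repair genes did. No peak was annotated to Prkdc or Tnfrsf10b in either table, nor to Atm or Chek2 in the untreated one.

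The widest of these differences was at Eda2r, a p53-induced receptor of the tumour necrosis factor receptor family on the X chromosome. Its 2 peaks summed to 8.40, 13.7 and 5.45 tags in untreated CD45.1 and to 81.9, 70.4 and 40.6 in CD45.2 (-2.77, SE 0.412, adjusted p = 9.66e-10), and after LPS to 7.28, 10.4 and 6.60 against 61.3, 44 and 24.3 (-2.39, SE 0.467, adjusted p = 1.91e-05). The difference lay at the promoter, chrX:94572556-94572698, which held 0.933, 0 and 0 tags in untreated CD45.1 and 65.5, 49.2 and 28.4 in CD45.2, at least 16.3-fold more against a floor of 3 tags per library. After LPS the promoter held 1.21, 0 and 0 against 44.7, 32.7 and 21.4 tags, at least 10.8-fold more. In both treatments only host libraries had over 10 tags there, so the promoter peak met the filter only through the population in which it is high. Peaks on the X chromosome as a whole had a median of 0.00 in untreated mice and 0.12 after LPS.

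Cdkn2a, the locus of p16 and Arf, of which the latter inhibits Mdm2, summed to 69, 78.5 and 55.5 tags in untreated CD45.1 and to 150, 132 and 187 in CD45.2 (-1.20, SE 0.209, adjusted p = 2.79e-07), and to 29.9, 58.7 and 56.6 against 167, 103 and 69.8 after LPS (-1.21, SE 0.314, adjusted p = 0.00307; with the block -1.18, adjusted p = 0.516). Both of its untreated peaks that passed are annotated as promoters. Cdkn2b, the neighbouring gene of p15, held 216, 208 and 182 against 334, 235 and 257 tags (-0.42, SE 0.154, adjusted p = 0.0415; with the block 0.122) in untreated mice and gave -0.05 after LPS (adjusted p = 0.946). Every host library lay above every grafted one at both genes in untreated mice, but both were named because their sums passed. Of all untreated gene sums, 33.1% did not overlap in either direction.

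Dram1, a lysosomal protein of p53-induced autophagy, went the other way, with 299, 309 and 329 tags in untreated CD45.1 and 170, 116 and 166 in CD45.2 (1.07, SE 0.157, adjusted p = 6.07e-10), and 156, 205 and 173 against 137, 78.1 and 84 after LPS (0.88, SE 0.224, adjusted p = 0.00244; with the block 0.0589). Hipk2, a kinase that phosphorylates p53, gave 0.48 (adjusted p = 0.00453), Rchy1, a ubiquitin ligase for p53, 0.63 (adjusted p = 0.0208) and Tnfaip8, a regulator of cell death, 0.27 (adjusted p = 0.0188) in untreated mice. With the block their adjusted p were 0.0580, 0.146 and 0.0912. The repair endonuclease gene Ercc5 gave -0.46 (adjusted p = 0.00344). After LPS these 4 had adjusted p of 0.415, 0.955, 0.556 and 0.612.

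**Figure D5:**
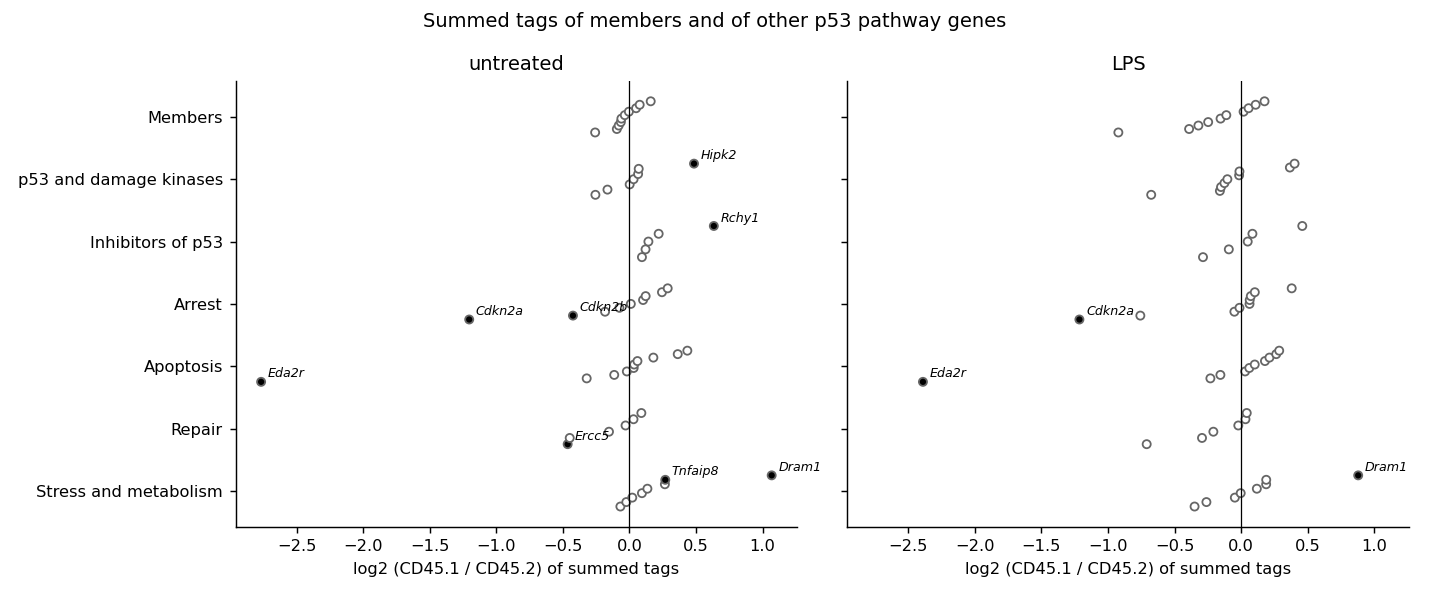
Log2 difference of CD45.1 over CD45.2 (x axis) in summed tags for the 10 members and for the tested genes of 6 further p53 pathway lists (rows), in untreated mice (left) and after LPS (right). Filled, named points passed at an adjusted p under 0.05; the 10 members are all open, while Eda2r and Cdkn2a lie left of 0 and Dram1 right of 0 in both panels.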

How the data were processed

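ATAC-seq was measured in 12 libraries of sorted brain macrophages. Per the file headers the authors merged HOMER peaks of the 6 libraries of a treatment and counted tags on mm9. The submitters' processing notes also name Bowtie2, Picard 1.108 and bcl2fastq 2.17.1.14, while duplicate removal and any shift of read ends for the transposase are not given in the sources used here, and duplicates, if kept, would add to the tags. The deposited values are estimated counts, raw HOMER tags per merged peak in steps of 0.5, which were rounded to whole numbers here. A peak was tested with over 10 tags in at least 1 library. Populations were compared within a treatment with DESeq2 1.42.0 in R 4.3.3, for peaks and for tags summed per gene. The interaction and the LPS response used matched peaks of all 12 libraries. Alternatives were edgeR 4.0.16 quasi-likelihood, the mouse as a block, GC correction, total-tag scaling, other filters and leaving out each library. Tests were checked on simulated data. Equal replicate numbers in CD45.1 and CD45.2 were taken as the same mouse, which the titles do not state, and the mouse block rests on that reading. Deviations from the group means correlated within a mouse at 0.0762 to 0.0897 in untreated and -0.0640 to 0.149 in LPS mice. Between different mice they correlated at -0.103 to -0.000677 and at -0.155 to 0.114, so in untreated mice every same-mouse value was the higher. The block was not in the study's methods. Gene positions are GENCODE vM1 and sequences the mm9 assembly. Members and lists were chosen with earlier results of these data known, and the Mdm2 peaks, the printed sequences and the width alternative after values were seen. Named genes were the 10 members, and other p53 pathway genes where their sum passed. The host microglia marker list is not reported here in full.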

Additional observations from a re-analysis of the deposited data

How the results depend on the processing

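In untreated mice the count of member peaks that passed was 3, and it was 7 with edgeR, each of them on the host side, 1 with a replicate block for the mouse, 1 with the block and a GC correction, and 1 with libraries scaled to total tags. The 7 are of 41 tested members, where edgeR passed 13545 of all 59170 peaks, 6320 of them on the host side. Leaving out 1 library gave 1 to 2 member peaks, with 1 without CD45.2 of mouse 5. The peak that stayed under an adjusted p of 0.05 throughout was that at −100680 bp from Ccng1, with log2 differences from -2.86 to -2.51, but its adjusted p rose to 0.0145 and 0.0139 when the CD45.2 library of mouse 5 or 6 was left out. Peaks over 4-fold at an adjusted p under 0.01 therefore numbered 0 to 1 when a library was left out, and 0 with a mean of at least 20 tags, a filter this peak did not meet. Member gene sums that passed rose from 0 to 1 with edgeR and to 1 with peaks within 1 kb, Bbc3 in both cases. After LPS, edgeR passed 1 peak, in exon 1 of Bax, and 1 gene sum, that of Bax (-0.89, adjusted p = 0.0191). The interaction count was 0 in all settings run, and the LPS responses of 3 and 3 peaks were 3 to 4 with a library left out. Among the members the block changed no call other than those of the Bbc3 and Phlda3 peaks. Of the 11 pathway gene calls it ended 6, total tags ended 6 (Cdkn2a, Cdkn2b, Ercc5, Hipk2, Rchy1 and Tnfaip8 in untreated mice) and edgeR ended 0. In CD45.2 the Mdm2 peak at −9282 bp was lost under total tags (1.03, adjusted p = 0.126).

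Over all features, 8789 untreated peaks passed, against 13545 with edgeR, 4248 with a mean of at least 20, 5524 with total tags, 5723 with block and GC correction, and 4889 and 5564 without CD45.2 of mouse 5 or 6. After LPS 3178 passed, against 5914, 945 and, with the block, 1804 or, with GC correction too, 1494, and 1427 to 1860 without any of 5 of the 6 libraries in turn. Gene sums passed in 2435 untreated genes, against 775 with total tags, 557 with peaks within 1 kb and 1530 and 1590 without CD45.2 of mouse 5 or 6, and in 1092 after LPS, against 586, with the block, 225 within 1 kb and 571 to 678 without CD45.1 or CD45.2 of mouse 2 or 3. The interaction passed in 96 pairs, against 51 with the block and 16 with total tags, and 56 and 40 when mouse 6 (its CD45.1 library) and mouse 5 (its CD45.2 library) were left out in turn. LPS responses passed in 4598 and 4463 pairs, against 2620 and 2751 with total tags, and 3034 in CD45.1 without its mouse 3. Scaling to total tags moved the median of LPS peaks by 0.143, of LPS gene sums by 0.146, of the interaction by 0.101 and of the LPS response in CD45.2 by -0.140. The share of calls higher in CD45.1 moved from 55.8% to 68.9% for LPS gene sums under it and from 63.2% to 52.9% for LPS peaks with block and GC correction, and the share up in the CD45.1 LPS response from 57.9% to 69.7% under it and to 70.1% without mouse 3.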
